A study of Mus musculus with 5 samples.

Results

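The genes described here are 31 genes that make cholesterol, sense its level or move it within the cell. They were chosen by name from a fixed list, with the transcripts of each gene summed, and are 31 of the 21667 genes in the table. All 31 passed the filter for testing, at least 1 CPM (a gene's reads scaled to the total of its library) in at least 2 libraries, as did 13764 genes in all. By role they are 8 enzymes of the mevalonate steps, 12 enzymes of the sterol steps, 5 genes that control the sterol-sensing transcription factors, 3 genes of sterol traffic and 3 genes of the liver X receptor arm.

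The study sequenced RNA of total epidermis from the backs of wildtype C57BL/6 male mice at postnatal day 49, which the labels also give as 7 weeks, in 5 libraries. The control group was 1 library labelled untreated, and the labels do not say whether that skin received the lotion. The forskolin group was 2 libraries at 10 µM forskolin and the cAMP group 2 libraries at 1.325 mM cAMP, each compound carried in DMSO and PLO lotion and put on shaved back skin 3 times within 5 days. Forskolin activates adenylyl cyclase, the enzyme that makes cyclic AMP, and cAMP is that second messenger itself. No transgene or deletion is named for any group, and the doses of the compounds are not on one scale. The labels do not say that the libraries of a group came from different mice. Every p-value therefore measures only the spread between these libraries, taken mostly over all tested genes together. The control has no replicate.

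Cells build cholesterol from acetyl-CoA in a long chain of steps that runs through mevalonate, farnesyl diphosphate, squalene and lanosterol. When sterols are scarce in the endoplasmic reticulum, SCAP carries the SREBP factors to the Golgi, where they are cut and released to switch on most genes of the chain, and when sterols are plentiful the INSIG proteins hold SCAP back. Oxysterols activate the liver X receptors, which act in the opposite sense by favouring export. In skin, cholesterol is a main lipid of the water barrier made by keratinocytes, and sebaceous glands are a site of intense lipid synthesis.

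The libraries differed in what their reads held. Mitochondrially encoded genes took 69.3% of the control library and 43.2% to 58.1% of the treated ones, and nuclear genes that are neither pseudogenes nor rRNA took 7.9% against 26% to 38%. The median-of-ratios size factor was 0.325 for the control, whereas the treated libraries had 1.12 to 1.64. Each value is therefore given as deposited and, where it bears on a call, after division by that factor, called rescaled below. The scaling moved the median log2 change of all tested genes from 1.69 to 0.21 for forskolin against control and from 1.66 to 0.20 for cAMP against control, but only from -0.03 to -0.02 for cAMP against forskolin. The comparison of the treatments is thus given first. As for the tissue, the 6 basal keratinocyte markers summed to 1041 CPM in the control and lay between 2162 and 5146 CPM in treated skin, and none was at 0. Rescaled, their sum was 3201 in the control and lay between 1938 and 3640 in treated skin. The 6 fibroblast markers summed to 9.15 CPM in forskolin 1 and 107 to 260 CPM in the other libraries.

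Most enzyme genes were at higher levels in both cAMP libraries than in both forskolin libraries, and the other genes were divided, in part by the scaling. Both cAMP libraries lay above both forskolin libraries in 7 of 8 mevalonate genes and 9 of 12 sterol-step genes, against 1 of 5 SREBP control genes, 1 of 3 traffic genes and 1 of 3 liver X receptor genes. That is 19 of 31 genes, where 17% of all tested genes were ordered this way. The reverse order was found in 3 of 31 (Sc5d, Npc1 and Mylip), where 16.7% of all tested genes were so ordered. Rescaled, the counts were 21 of 31 with a background of 20.5%, and 0 of 31 with a background of 21.1%. By role, the rescaled counts were 7 of 8 mevalonate, 9 of 12 sterol-step, 3 of 5 SREBP control, 1 of 3 traffic and 1 of 3 liver X receptor genes. Summed over the 20 enzyme genes, the level was 1141 and 1117 CPM in forskolin 1 and 2 and 2511 and 2707 CPM in cAMP 1 and 2, a ratio of means of 2.31, or 2.39 rescaled. Rescaled, the sums were 807 and 851 with forskolin and 1535 and 2427 with cAMP, so that the cAMP libraries stood farther apart. As deposited, Hmgcs1 and Msmo1 held 247 and 155 CPM of the sum in forskolin 1 and 215 and 133 CPM in forskolin 2. They held 443 and 468 CPM in cAMP 1 and 557 and 540 CPM in cAMP 2. The treated groups did not overlap in the sum under either scaling.

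One gene passed the test, and only after rescaling. As deposited, limma called 0 of 31 genes higher and 0 lower with cAMP than with forskolin at an adjusted p under 0.05, where it called 0.189% of all tested genes higher and 0.189% lower; at an unadjusted p under 0.05 it gave 15 of 31 higher and 0 lower, and 488 higher and 449 lower of all 13764 tested genes. Rescaled, it called 1 of 31 higher (background 0.32%) and 0 lower (background 0.124%), and at an unadjusted p under 0.05 it gave 17 of 31 higher and 0 lower, and 852 higher and 703 lower of all 13764. The median log2 difference was 0.79 over the 31 genes, against -0.03 over all tested genes. It was 1.05 in the mevalonate genes, 0.95 in the sterol-step genes, 0.35 in the SREBP control genes, -0.20 in the traffic genes and 0.08 in the liver X receptor genes.

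**Figure D1:**
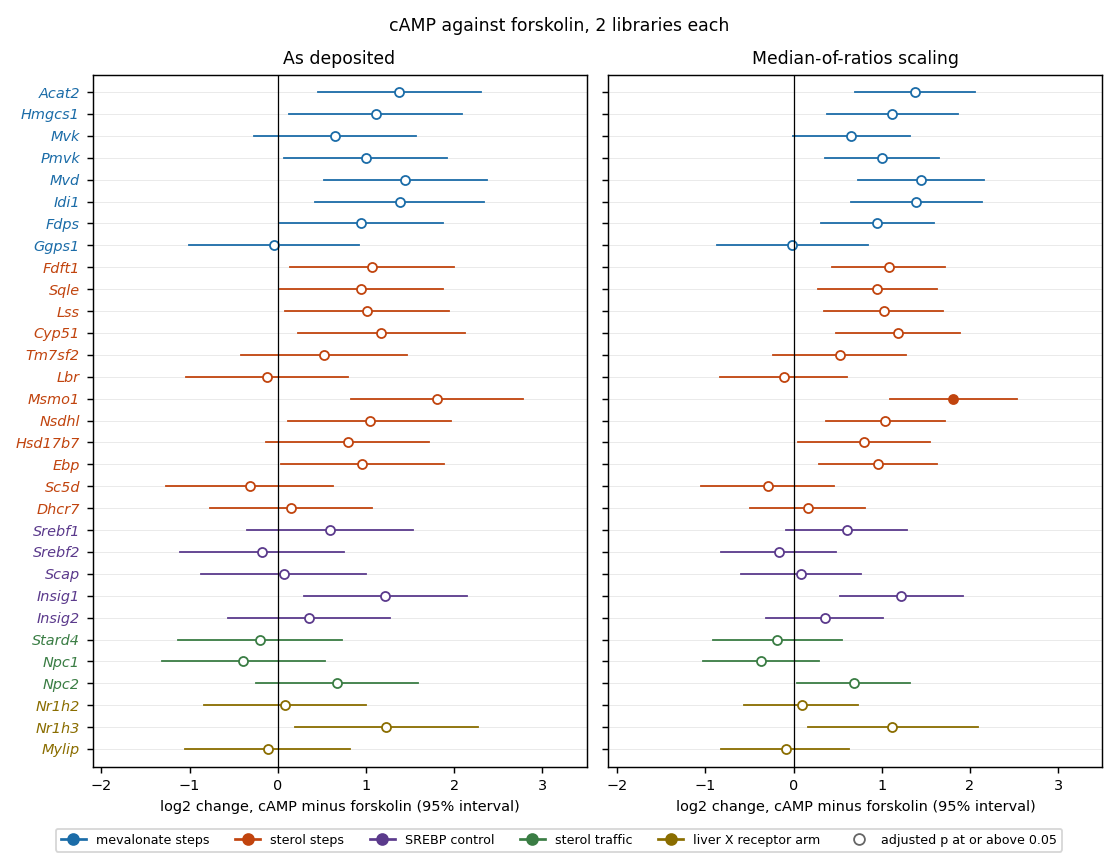
Log2 difference (cAMP minus forskolin, 2 libraries each) of each of the 31 genes with its 95% interval from limma, as deposited on the left and after median-of-ratios scaling on the right; colours give the role, and filled points passed an adjusted p of 0.05. Most enzyme genes sit near 1 on both sides, and Msmo1 is farthest to the right at 1.80 and 1.81 and is the one filled point. Left of 0 on both sides sit the enzyme genes Ggps1, Lbr and Sc5d, with Srebf2, Stard4, Npc1 and Mylip.

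The gene that passed was Msmo1 (ENSMUSG00000031604, chr8:64718139-64733792), whose enzyme removes methyl groups from sterols on the way from lanosterol to cholesterol. Its level was 42.1 CPM in the control, 155 and 133 CPM in forskolin 1 and 2, and 468 and 540 CPM in cAMP 1 and 2. Rescaled, it was at 129.6 in the control, 109.5 and 101.5 with forskolin, and 286.1 and 483.9 with cAMP. The control thus lay below both forskolin libraries as deposited and above both after rescaling. Both cAMP libraries stood far above both forskolin libraries. The log2 difference was 1.80 (95% interval 0.83 to 2.78; limma adjusted p = 0.0723) and, rescaled, 1.81 (1.09 to 2.53; limma adjusted p = 0.0289). By the size of this difference, from the highest, Msmo1 ranked 32 as deposited and 21 rescaled of 13764 genes. After rescaling, Msmo1 was the one call without forskolin 1, it was called with Acat2 and Mvd without forskolin 2 (3 of 31), and 0 of 31 were called without cAMP 1 or without cAMP 2.

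The genes with the next smallest p-values as deposited did not pass under either scaling. Mvd (ENSMUSG00000006517, chr8:122433596-122443422), which makes isopentenyl diphosphate, was at 27.5 and 49.5 CPM with forskolin and 116 and 89.6 CPM with cAMP, a log2 difference of 1.44 (0.52 to 2.37; limma adjusted p = 0.224, rescaled 0.0688). Acat2 (ENSMUSG00000023832, chr17:12942890-12960747), which joins acetyl-CoA units at the start of the chain, was at 51.4 and 61.5 CPM against 145 and 150 CPM, a difference of 1.37 (0.45 to 2.30; limma adjusted p = 0.291, rescaled 0.0682). Idi1 (ENSMUSG00000058258, chr13:8885501-8892451), which converts isopentenyl diphosphate to its isomer, was at 136 and 126 CPM against 290 and 405 CPM, a difference of 1.38 (0.42 to 2.34; limma adjusted p = 0.326, rescaled 0.0919). In each of these the higher forskolin library lay well below the lower cAMP library.

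Insig1 (ENSMUSG00000045294, chr5:28071363-28078662), the retention protein whose own gene is a target of the SREBP factors, was at 29.6 and 30.3 CPM with forskolin and 64.3 and 78.0 CPM with cAMP, a log2 difference of 1.22 (0.30 to 2.14; limma adjusted p = 0.418, rescaled 0.126). Hmgcs1 (ENSMUSG00000093930, chr13:119690462-119708086), which makes the precursor of mevalonate, was at 247 and 215 CPM against 443 and 557 CPM, a difference of 1.11 (0.13 to 2.09; limma adjusted p = 0.632, rescaled 0.214). The forskolin libraries of Insig1 were nearly equal, and neither gene overlapped between the treatments.

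The promoters of these 6 genes are shown because the genes were higher together in both cAMP libraries, and because the SREBP factors and the cyclic AMP response factor CREB each bind known DNA letters. The sequences are RefSeq's (GRCm38.p6), the 250 bases before each annotated start, 5′ to 3′ on the gene's strand. Capitals mark, on either strand, the sterol element TCACNCCAC, the core TGACG of the cyclic AMP response element (CRE core), and the box CCAAT bound by NF-Y, a factor that works beside the SREBP factors. Msmo1, Mvd, Acat2, Idi1 and Insig1 were taken as the 5 smallest p-values of cAMP against forskolin, a choice made after the values were seen. Hmgcs1 was added as the one gene with a match to these exact letters of the sterol element. That holds among the 26 genes of the list that have a promoter window.
Msmo1, chr8:64733579-64733828, minus strand: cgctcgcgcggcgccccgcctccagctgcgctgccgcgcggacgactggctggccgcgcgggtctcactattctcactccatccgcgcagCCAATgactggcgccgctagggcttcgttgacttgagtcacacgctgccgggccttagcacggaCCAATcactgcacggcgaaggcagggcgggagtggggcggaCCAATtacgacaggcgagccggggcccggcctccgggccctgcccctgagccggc
Mvd, chr8:122443423-122443672, minus strand: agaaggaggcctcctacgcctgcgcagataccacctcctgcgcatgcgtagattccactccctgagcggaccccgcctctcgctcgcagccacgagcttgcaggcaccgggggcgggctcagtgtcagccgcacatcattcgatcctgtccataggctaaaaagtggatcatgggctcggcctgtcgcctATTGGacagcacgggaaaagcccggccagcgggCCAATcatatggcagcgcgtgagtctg
Acat2, chr17:12960726-12960975, minus strand: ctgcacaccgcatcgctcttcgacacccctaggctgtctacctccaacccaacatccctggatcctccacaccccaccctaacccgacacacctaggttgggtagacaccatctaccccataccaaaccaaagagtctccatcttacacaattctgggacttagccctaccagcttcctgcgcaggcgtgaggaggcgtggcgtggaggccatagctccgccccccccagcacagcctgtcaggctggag
Idi1, chr13:8885356-8885605, plus strand: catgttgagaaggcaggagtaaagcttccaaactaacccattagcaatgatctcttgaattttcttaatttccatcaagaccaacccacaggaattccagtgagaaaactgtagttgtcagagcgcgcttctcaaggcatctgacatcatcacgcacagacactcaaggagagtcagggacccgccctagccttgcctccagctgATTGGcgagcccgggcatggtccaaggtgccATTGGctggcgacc
Insig1, chr5:28071162-28071411, plus strand: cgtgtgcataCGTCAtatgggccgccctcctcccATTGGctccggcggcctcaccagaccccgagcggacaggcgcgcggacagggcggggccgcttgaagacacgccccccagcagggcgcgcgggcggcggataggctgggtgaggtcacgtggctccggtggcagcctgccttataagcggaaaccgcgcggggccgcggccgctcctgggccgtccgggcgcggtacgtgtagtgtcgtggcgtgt
Hmgcs1, chr13:119690101-119690350, plus strand: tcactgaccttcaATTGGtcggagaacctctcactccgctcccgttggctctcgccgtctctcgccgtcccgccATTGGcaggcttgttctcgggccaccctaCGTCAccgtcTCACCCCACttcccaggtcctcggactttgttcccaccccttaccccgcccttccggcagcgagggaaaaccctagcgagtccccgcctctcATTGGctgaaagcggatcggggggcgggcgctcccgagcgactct
Msmo1 shows 3 NF-Y boxes, Mvd and Idi1 show 2 each, and Insig1 shows 1 box with 1 CRE core. Hmgcs1 shows the sterol element at -137 from the start, a CRE core 10 bases upstream of it at -147, and 3 NF-Y boxes. Acat2 shows none of these letters in this window.

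Over the list, 26 of 31 genes have a window of 250 bases before to 50 after a start in the RefSeq table, 35 windows in all; Fdps, Fdft1, Sqle, Stard4 and Npc1 have none there. The NF-Y box CCAAT was in 22 of 26 genes (84.6%), against 41.1% of 27025 genes with a window and 42.6% of 9546 tested genes with one. The GC box GGGCGG, bound by the general factor SP1, was also in 22 of 26 genes (84.6%), against 38.2% and 68.6%. The CRE core TGACG was in 11 of 26 (42.3%), against 23.0% and 35.1%. The full response element TGACGTCA, which contains the core on both strands, was in 0 of 26, against 2.0% and 3.5%, and the sterol element TCACNCCAC was in 1 of 26 (3.8%), against 1.4% and 1.4%. Both strands were searched throughout. These are matches of letters in short windows, and the genes with and without them were not compared.

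**Figure D2:**
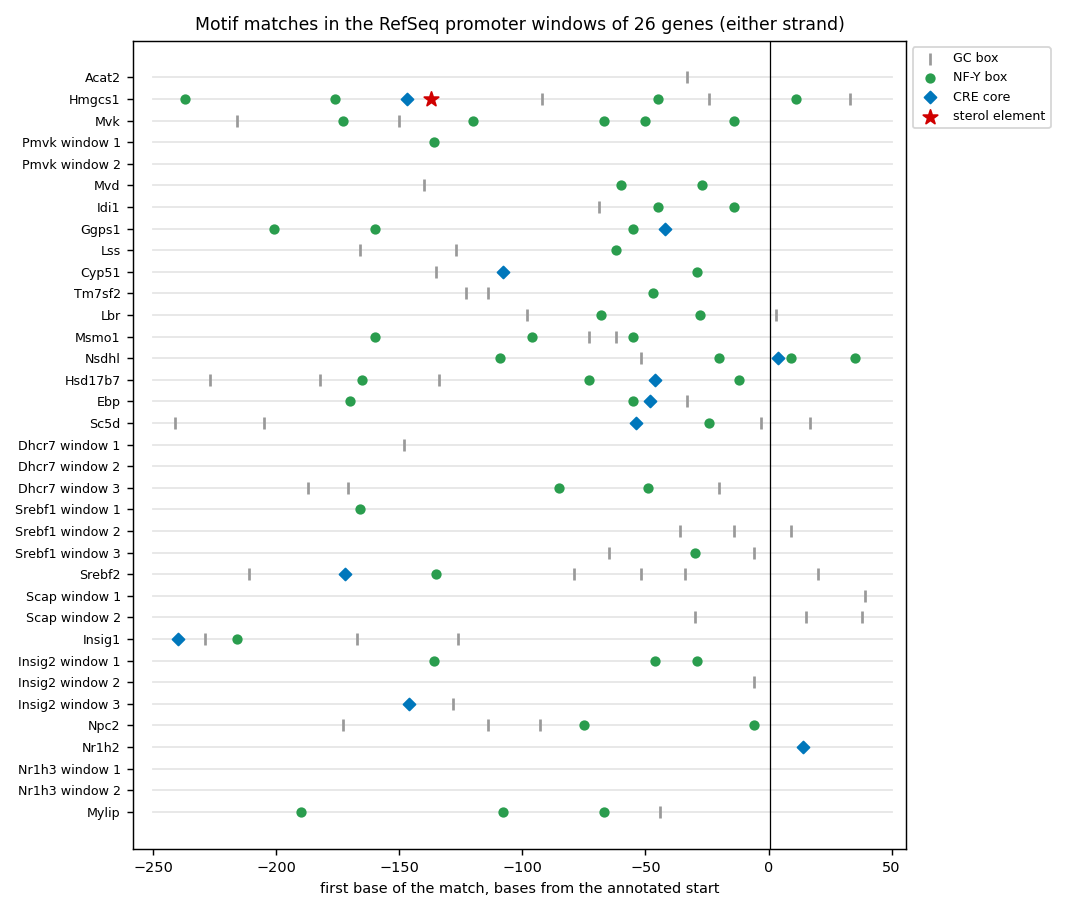
Positions of the matches in the 35 promoter windows of 26 genes, as bases from the annotated start (horizontal axis, vertical line at the start), with 1 row per window and 1 symbol per kind of match on either strand. NF-Y boxes and GC boxes recur in most rows, CRE cores are in 11 genes, and the star in the Hmgcs1 row, at -137, is the only sterol element.

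The other mevalonate genes divided. Pmvk, whose kinase acts after that of Mvk, was at 38.4 and 31.3 CPM with forskolin and 98.7 and 50 CPM with cAMP, and Fdps, which makes farnesyl diphosphate, at 42.8 and 49.2 CPM against 106 and 74.7 CPM. Their groups did not overlap, with log2 differences of 1.0 and 0.94 that did not pass (limma adjusted p = 0.692 and 0.718). Mvk, the mevalonate kinase, was at 22.9 and 28.0 CPM against 55.5 and 29.2 CPM, so that cAMP 2 lay close to forskolin 2. Ggps1, on the side branch that makes geranylgeranyl groups for proteins, overlapped, at 7.58 and 4.76 CPM with forskolin and 4.49 and 7.46 CPM with cAMP, a difference of -0.04 (-1.01 to 0.92). It is the one mevalonate gene of the list whose treated groups overlapped.

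In the sterol steps, 9 of 12 genes were at higher levels in both cAMP libraries than in both forskolin libraries, among them Msmo1, Cyp51, Fdft1, Lss, Sqle, Nsdhl and Hsd17b7. Cyp51, the demethylase of lanosterol, was at 101 and 89.9 CPM with forskolin and 195 and 240 CPM with cAMP, and Fdft1, squalene synthase, at 42.9 and 43.0 CPM against 115 and 72.3 CPM. Lss, which closes the rings to give lanosterol, was at 69.4 and 91.9 CPM against 165 and 158 CPM, and Sqle, squalene epoxidase, at 54.8 and 50.8 CPM against 97.0 and 108 CPM. Nsdhl and Hsd17b7, which act with the Msmo1 enzyme in removing methyl groups, were at 24.3 and 24.0 CPM against 49.4 and 52.0 CPM, and at 31.7 and 34.0 CPM against 47.0 and 70.4 CPM. None of the 6 overlapped between the treatments. Their log2 differences ran from 0.79 (Hsd17b7) to 1.17 (Cyp51, 0.23 to 2.12), with limma adjusted p-values of 0.505 to 0.829, so that none passed.

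The other 5 sterol-step genes were divided. Ebp, a sterol isomerase, was at 17.9 and 18.5 CPM with forskolin and 37.0 and 35.5 CPM with cAMP (log2 difference 0.96, 0.04 to 1.88). Dhcr7, which makes cholesterol from the precursor of vitamin D, overlapped, at 23.3 and 27.5 CPM against 34.1 and 23.3 CPM. Sc5d, a sterol desaturase, was at 8.56 and 6.28 CPM against 5.96 and 5.41 CPM, lower in both cAMP libraries by a narrow margin (-0.32, -1.27 to 0.63). Of the pair of reductases that can act on the same intermediate, Tm7sf2 was at 10.0 and 11.6 CPM against 17.5 and 14.4 CPM without overlap, and Lbr, which is also a protein of the nuclear envelope, at 29.5 and 21.5 CPM against 20.9 and 25.5 CPM with overlap. None of these 5 passed (limma adjusted p from 0.7 to 0.998).

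Of the SREBP control genes other than Insig1, all overlapped between the treatments as deposited, and Srebf1 and Insig2 did not overlap after rescaling. None passed the test under either scaling. Srebf1, whose factors act mostly on fatty acid genes, was at 84.1 and 135 CPM with forskolin and 200 and 129 CPM with cAMP, with cAMP 2 below forskolin 2, a log2 difference of 0.59 (-0.35 to 1.53). Rescaled, it was at 59.4 and 103 against 122 and 116, with both cAMP libraries above both forskolin libraries. Srebf2, the main factor of cholesterol genes, was at 81.6 and 106 CPM against 105 and 63.7 CPM, a log2 difference of -0.18 (-1.11 to 0.75). Scap was at 65.3 and 100 CPM against 111 and 64.8 CPM, a difference of 0.07 (-0.87 to 1.0). Insig2, the second retention protein, was at 31.9 and 22.1 CPM against 39.6 and 29.2 CPM, a difference of 0.35 (-0.57 to 1.27), and rescaled at 22.5 and 16.8 against 24.2 and 26.2, without overlap. In Srebf2 and Scap, cAMP 2 was the lowest of the treated libraries as deposited.

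Traffic and liver X receptor genes showed no common direction. Npc1 and Npc2, the membrane and the soluble protein that let cholesterol out of lysosomes, stood in opposite orders: Npc1 was at 39.7 and 46.8 CPM with forskolin and 34.0 and 31.5 CPM with cAMP, and Npc2 at 36.9 and 29.3 CPM against 63.3 and 44.4 CPM. Stard4, a carrier of sterols through the cytosol, was at 23.6 and 12 CPM against 16.2 and 13.1 CPM, within the range of the forskolin libraries. Nr1h2, the broadly expressed liver X receptor, overlapped at 40.1 and 43.8 CPM against 56.6 and 34.6 CPM. Nr1h3, the other receptor, was far lower, at 0.783 and 2.73 CPM against 4.33 and 5.85 CPM, and did not overlap (1.23, 0.19 to 2.27; limma adjusted p = 0.573). Mylip, a ubiquitin ligase that removes lipoprotein receptors, was nearly flat at 10.0 and 9.89 CPM against 9.13 and 9.13 CPM.

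**Figure D3:**
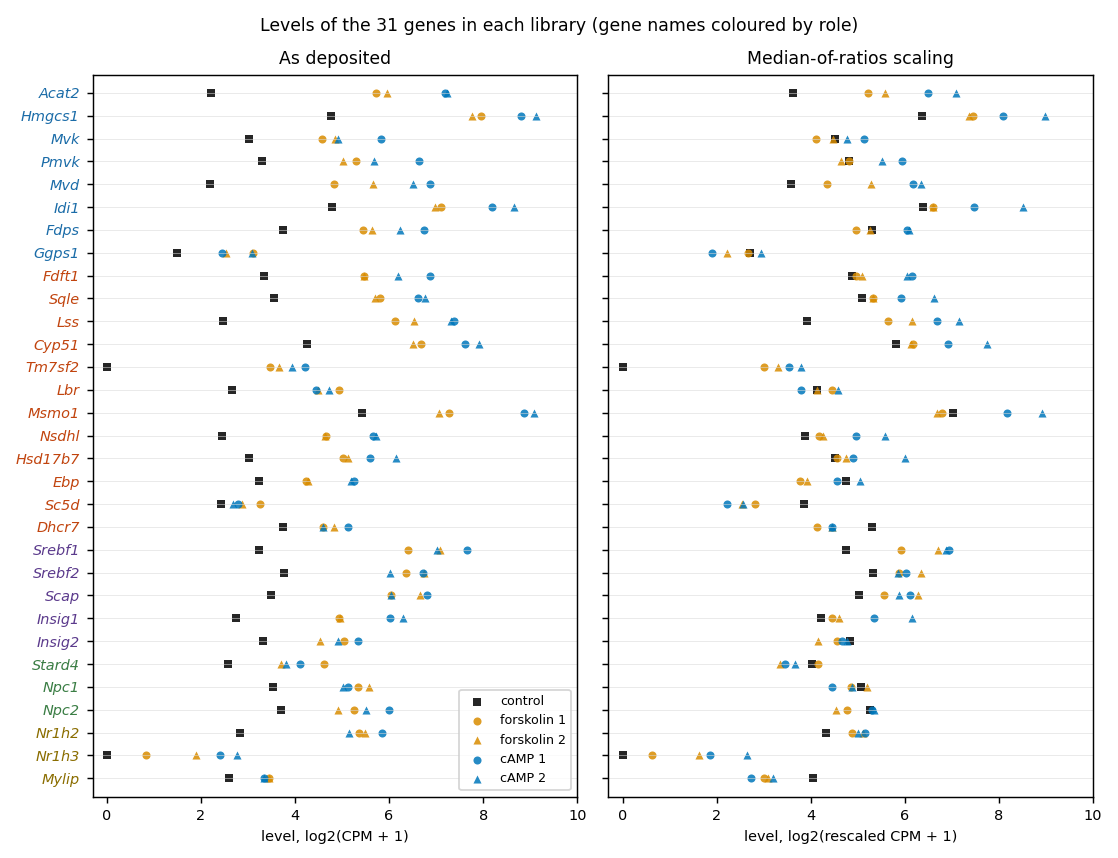
Level of each of the 31 genes in each library as log2(CPM + 1), as deposited on the left and after median-of-ratios scaling on the right; squares are the control, circles and triangles replicates 1 and 2 of forskolin and cAMP, and the colour of a name gives its role. On the left the control lies below all treated libraries in all 31 genes; on the right it lies within or above the treated libraries for many genes, while both cAMP libraries lie to the right of both forskolin libraries in 21 of 31 genes.

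Against the single control library, most genes of the list were higher as deposited, as were most tested genes. For forskolin, limma called 26 of 31 genes higher and 0 lower as deposited, where it called 66.3% of all tested genes higher and 0.341% lower. Rescaled, it called 5 of 31 higher and 0 lower, where it called 14.9% of all tested genes higher and 6.79% lower; the share of the list, 5 of 31, is near that background. The median log2 change over the list was 2.05 as deposited, against 1.69 for all tested genes, and 0.16 rescaled, against 0.21. The 5 genes called under both scalings were Acat2, Mvd, Lss, Tm7sf2 and Srebf1. Without forskolin 1 the count as deposited was 17, and without forskolin 2 the rescaled count was 3, with the calls of Mvd and Srebf1 lost.

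For cAMP, limma called 27 of 31 genes higher and 0 lower as deposited, where it called 65.1% of all tested genes higher and 0.436% lower. Rescaled, it called 14 of 31 higher, where 15.4% of all tested genes were called higher, and 1 lower, where 7.23% were called lower. The median change over the list was 2.84 as deposited, against 1.66 for all tested genes, and 0.93 rescaled, against 0.20. By role, the rescaled calls were 4 of 8 mevalonate genes (Acat2, Hmgcs1, Mvd, Idi1), 7 of 12 sterol-step genes (Fdft1, Sqle, Lss, Cyp51, Tm7sf2, Msmo1, Nsdhl), 2 of 5 SREBP control genes (Srebf1, Insig1), 0 of 3 traffic genes and 1 of 3 liver X receptor genes (Nr1h3). Without cAMP 2, a choice made after the data were seen, 6 of 31 were called higher after rescaling, and without cAMP 1 there were 14. The 2 treatments share the control library, so that their changes against it are not independent.

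Among the genes called in both treatments, Acat2 and Lss had among the largest changes. Acat2 was at 3.68 CPM in the control and 11.3 rescaled CPM there, against 36.4 and 46.9 rescaled CPM with forskolin and 88.5 and 134 rescaled CPM with cAMP. Its rescaled log2 change was 1.78 ± 0.39 (SE) with forskolin and 3.16 ± 0.39 with cAMP (limma adjusted p = 0.00422 and 2.96e-05). Lss (ENSMUSG00000033105, chr10:76531588-76557138) went from 14.1 rescaled CPM to 49.1 and 70.1 with forskolin and 101 and 142 with cAMP, changes of 1.98 ± 0.39 and 3.0 ± 0.39 (limma adjusted p = 0.00201 and 4.85e-05). In both genes every treated library was above the control under both scalings.

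Srebf1 (ENSMUSG00000020538, chr11:60199089-60222581) was the one gene of an SREBP factor called against the control under both scalings. It was at 25.9 rescaled CPM in the control, 59.4 and 103 with forskolin and 122 and 116 with cAMP, log2 changes of 1.56 ± 0.40 and 2.16 ± 0.40 (limma adjusted p = 0.011 and 0.00102). Srebf2 (0.79 and 0.62) and Scap (0.90 and 0.98) were called only as deposited, with rescaled adjusted p-values of 0.142 and 0.247, and of 0.106 and 0.0826. Insig1 rose with cAMP after rescaling (1.52 ± 0.41; limma adjusted p = 0.0124) and was at 0.30 with forskolin (limma adjusted p = 0.618), a contrast whose own test is the cAMP against forskolin difference given above. Hmgcs1 and Msmo1 were likewise called with cAMP and not with forskolin after rescaling, at changes with forskolin of 1.05 and -0.30. Under quantile scaling, however, Hmgcs1 was called with forskolin too.

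Tm7sf2 (ENSMUSG00000024799, chr19:6062821-6068373) and Nr1h3 (ENSMUSG00000002108, chr2:91184061-91202834) were listed at 0 in the control, so that their change is a lower bound set by a floor of 3 reads (0.0607 CPM, or 0.187 rescaled, if the table's offset stands for 0.0001 read). Rescaled, Tm7sf2 was at least 42.6-fold higher with forskolin and at least 63.1-fold with cAMP, and Nr1h3 at least 7.06-fold and at least 21.1-fold. Tm7sf2 passed in both treatments under both scalings, and Nr1h3 with cAMP only (rescaled limma adjusted p = 0.00843; with forskolin 0.155). The floor covers counting error only. These folds count all transcripts of a gene. In the treated libraries, protein-coding transcripts took 38.3% to 56.9% of the CPM of Tm7sf2 and 0.0% to 39.9% of that of Nr1h3.

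Sc5d (ENSMUSG00000032018, chr9:42254177-42264300) was the one gene of the list called lower in any comparison. It was at 4.39 CPM in the control and 5.41 to 8.56 CPM in the treated libraries as deposited, and at 13.5 rescaled CPM against 3.64 to 6.06. Its rescaled change with cAMP was -1.48 ± 0.44 (limma adjusted p = 0.0219), against 0.31 as deposited, so its direction turns with the scaling. With forskolin, Sc5d, Dhcr7, Mylip and Ebp were below the control after rescaling (-1.18, -1.01, -0.99 and -0.90) and above it as deposited. Dhcr7 and Mylip with cAMP (-0.85 and -1.09) turned in the same way. None of these passed after rescaling (limma adjusted p of 0.0609 to 0.115).

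**Figure D4:**
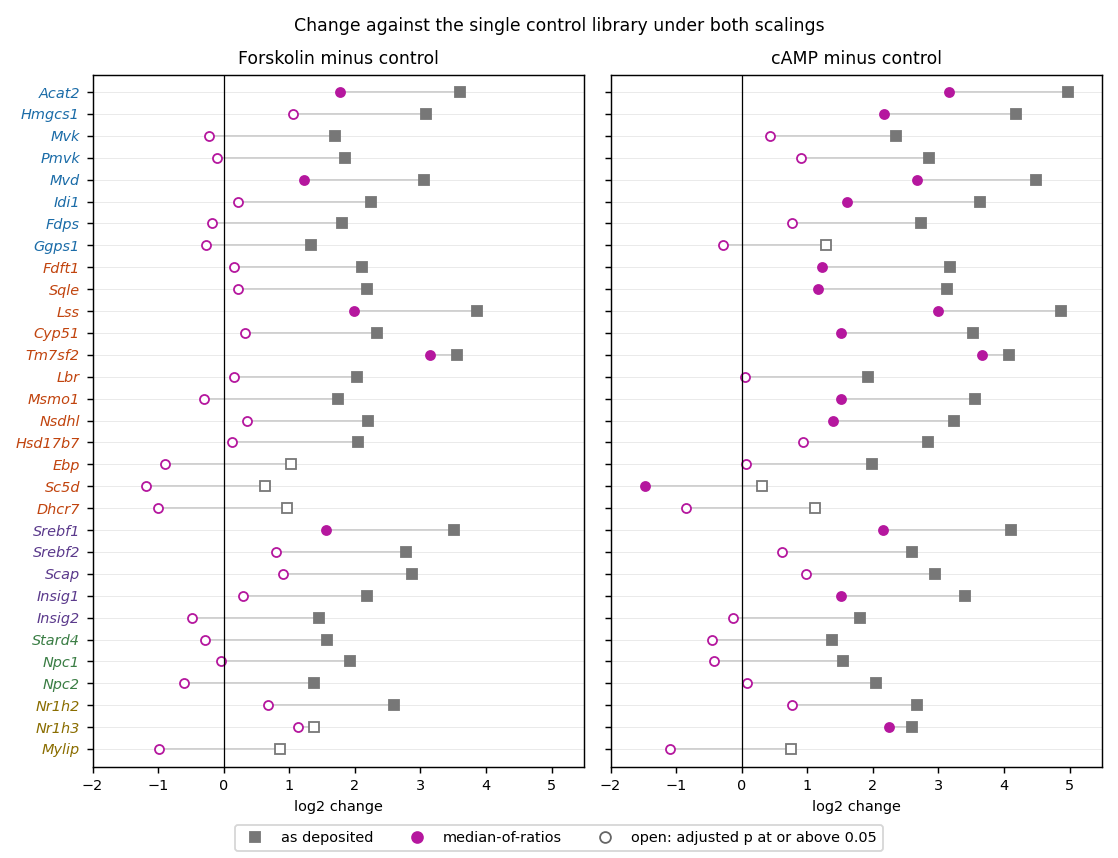
Log2 change of each gene against the single control library, forskolin on the left and cAMP on the right; grey squares are values as deposited, purple circles values after median-of-ratios scaling, and open symbols did not pass an adjusted p of 0.05. Every gene moves to the left with the scaling; 5 circles stay filled on the left, and 15 on the right, of which Sc5d lies below 0 at -1.48.

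Markers of several cell types differed between the libraries beside the enzyme genes. The 12 sebocyte markers summed to 259 CPM in the control, 2406 and 3623 CPM with forskolin and 7194 and 6647 CPM with cAMP, a ratio of cAMP to forskolin of 2.3, or 2.32 rescaled, beside 2.31 and 2.39 for the 20 enzyme genes. Scd1 alone held 947 and 1450 CPM of this sum with forskolin and 2900 and 3720 CPM with cAMP. As deposited, Krt79, Acsbg1 and Mc5r overlapped between the treatments, and the other sebocyte markers did not. All 12 were listed, and 1 of them, Pparg, was at 0 in the control library. After rescaling, 7 of 12 were called higher with forskolin and 10 of 12 with cAMP against the control, and 2 of 12 with cAMP against forskolin, where the shares of all tested genes were 14.9%, 15.4% and 0.32%. As deposited, 1 of 12 was called between the treatments, with a median log2 difference of 1.29. Of 5 tested fibroblast markers, 2 were called higher with cAMP than with forskolin as deposited and 0 rescaled, with medians of 1.6 and 1.53, and forskolin 1 was the low library there. The 6 melanocyte markers had a median of 0.82 under both scalings, with 0 called. The 6 basal keratinocyte markers summed to 5146 and 3967 CPM with forskolin and 4814 and 2162 CPM with cAMP, with overlap and a ratio of means of 0.765. The part of these cell types in the levels of the sterol genes was not tested, and in bulk samples fewer cells of a type and less RNA per cell cannot be told apart.

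**Figure D5:**
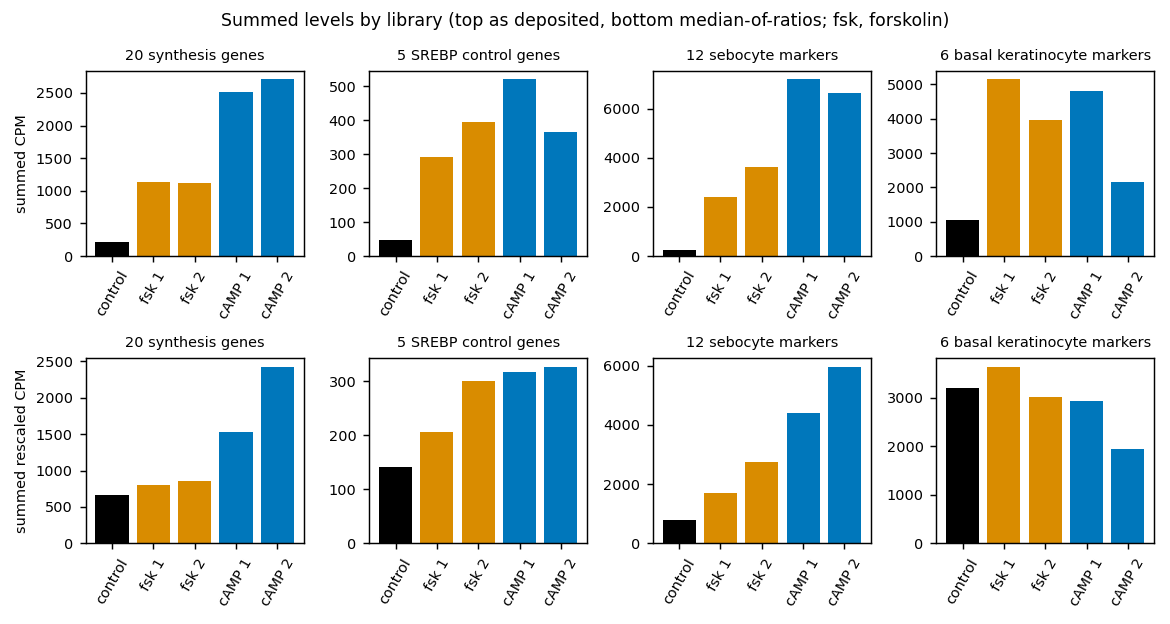
Summed level in each library of the 20 enzyme genes, the 5 SREBP control genes, the 12 sebocyte markers and the 6 basal keratinocyte markers, as deposited in the upper row and after median-of-ratios scaling in the lower row; each bar is 1 library and axes start at 0. The enzyme and sebocyte bars are highest in both cAMP libraries (2511 and 2707, and 7194 and 6647 CPM), whereas the basal keratinocyte bar is lowest among treated libraries in cAMP 2 (2162 CPM).

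Other genes of the pathway, from lists kept apart from the 31, were counted in the same fits, where 66.3% and 65.1% of all tested genes were called higher with forskolin and cAMP against the control (14.9% and 15.4% rescaled), and 0.189% with cAMP against forskolin (0.32% rescaled). Of 16 further genes of synthesis and SREBP processing, 13 were called higher with forskolin and 14 with cAMP against the control (4 and 5 rescaled), and 0 with cAMP against forskolin (1 rescaled), with none lower. The one was Tmem97, a membrane protein that binds sterols, at 13.9 and 24.4 CPM with forskolin and 71.1 and 46.3 CPM with cAMP (log2 difference 1.59; limma adjusted p = 0.133, rescaled 0.0495). Of 23 genes of uptake, export, esters and oxysterols 17 were tested, and 15 were called higher in each treatment against the control (5 and 5 rescaled, with 1 lower for cAMP), and 0 with cAMP against forskolin (1 rescaled). The one was Soat1, which makes cholesterol esters, at 82.2 and 149 CPM against 329 and 433 CPM (1.76, limma adjusted p = 0.0723, rescaled 0.0462). Lrp1 and Abcg1, next by p as deposited, were lower with cAMP, at -1.37 and -1.04 (limma adjusted p = 0.293 and 0.694). The median difference of that list was 0.08 as deposited. Of 13 genes of the isoprenoid branch, which uses the same precursors for ubiquinone, dolichol and prenylated proteins, 10 and 11 were called higher against the control (3 and 6 rescaled), and 0 between the treatments. Its Pdss1, of ubiquinone synthesis, was at 1.05 CPM in the control, 37.2 and 40.5 CPM with forskolin and 110 and 86.5 CPM with cAMP.

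Levels of different genes are compared per kilobase of transcript (CPM per kb, lengths from GENCODE M21). Over the 4 treated libraries Msmo1 had the highest median, 287 CPM per kb, with a range of 131 to 481. Hmgcs1 followed at 106 (66.2 to 172) and was below Msmo1 in each treated library, though the ranges overlap. This order depends on the lengths of the transcripts to which reads were assigned. Not divided by length, Hmgcs1 was above Msmo1 in forskolin 1, forskolin 2 and cAMP 2 (247, 215 and 557 against 155, 133 and 540 CPM). In cAMP 1 it was below Msmo1 (443 against 468 CPM). Then came Fdps at 87.4, Srebf1 at 72.6 and Idi1 at 71.5, whose ranges overlap one another and that of Hmgcs1. At the low end were Ggps1 at 1.44, Sc5d at 2.0, Mylip at 3.10, Stard4 at 3.21 and Nr1h3 at 3.57 CPM per kb. The ranges of Ggps1 (1.06 to 1.79) and Sc5d (1.16 to 3.24) overlap, and both lie far below that of Msmo1.

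The split of a gene's reads over its transcripts, as the table estimates it, was uneven in some genes. In Msmo1, protein-coding transcripts took 26.7% of the gene's CPM in the control, 10.5% and 24.0% with forskolin and 14.8% and 21.2% with cAMP. Most of the rest was 1 transcript annotated as processed (ENSMUST00000145216), at 114 and 78.1 CPM with forskolin and 373 and 380 CPM with cAMP, while the longest coding one (ENSMUST00000034015) was at 4.55 and 9.37 CPM against 26.3 and 59.7 CPM. Both were higher in both cAMP libraries. In Lss the protein-coding share ran from 22.4% to 52.2%, and in Lbr from 4.6% in the control to 90.2% in forskolin 2, with the remainder mostly in transcripts that retain introns. In Srebf1, 1 coding transcript (ENSMUST00000134660) was near 0 in the control and at 44.4 and 37.4 CPM with forskolin and 116 and 79.2 CPM with cAMP. The longest coding transcript of Srebf1 (ENSMUST00000020846) was at 5.21 CPM in the control, 12.6 and 58.6 with forskolin and 57.4 and 16.3 with cAMP, with no order between the treatments. Levels of single transcripts are as deposited and were not rescaled. A rise of this transcript over the control therefore cannot be read from them. Hmgcs1, Mvd, Ggps1, Fdft1, Srebf2, Npc2 and Mylip were each listed with 1 transcript.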

How the data were processed

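RNA of 5 libraries was used: 1 control, 2 forskolin and 2 cAMP, grouped by the labels. Dissection and overnight trypsin freed the epidermis, Trizol and a Qiagen column gave the RNA, and an Illumina kit for stranded mRNA gave the libraries, per the labels' protocols. The tools named are STAR, Partek and bcl2fastq 2.17, per the submitters' processing notes; how they were run, and which build and annotation they used, is not given in the sources used here. From there the authors deposited 1 table of 59869 transcripts whose values are CPM, a unit read from the values, with a small offset in place of 0. If that offset stands for 0.0001 read, the libraries held between 34200000 and 51700000 reads; the precision of a low value follows from this depth. No value column was left unused, and 3 rows without a gene identifier, at most 0.0679% of a library, were left out. Of 143 transcripts of the 31 genes, 143 are in GENCODE M21 (GRCm38) and 133 have the same start and end there, so coordinates are those of the table, read as GRCm38.

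CPM was summed per gene, and log2(CPM + 1) was fitted with limma 3.58.1 in R 4.3.3 for genes that reached 1 CPM in 2 or more libraries. The fit had an intensity trend, all 5 libraries and 3 groups in 1 fit, and 2 residual degrees of freedom. A spread shared over genes added 360.2 prior degrees of freedom as deposited and 16.35 rescaled. The control, with 1 library, was assigned the spread of the treated libraries. P-values are 2-sided and adjusted by Benjamini-Hochberg over 13764 genes, with a threshold of 0.05, and every change is a difference of log2(CPM + 1), a scale that shrinks the changes of low genes. The 3 comparisons were cAMP and forskolin each against control and against each other. The fit was tested on simulated data. Rescaled values were divided by median-of-ratios size factors over 11935 genes above 0.05 CPM in all libraries. Alternatives were other scalings (median-of-ratios, nuclear genes, quantile), pseudocounts of 0.1 and 5, no filter or one at 10 CPM, leaving out each library, and a replicate block. Replicate numbers are shared between forskolin and cAMP, but their deviations correlated at -0.05 (-0.07 rescaled), so the numbers were not taken as pairs. The rule was to name all 31 genes and up to 4 genes of each other pathway list with the smallest p in each comparison; of the latter only a few are named. The genes, lists and tests were chosen with earlier results of these data known. Promoters and motifs are descriptions without a test.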

Additional observations from a re-analysis of the deposited data

How the results depend on the processing

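The single control library and 2 libraries per treatment limit every call, and a gene near 1 CPM rests on few reads. With cAMP against forskolin, 0 of 31 genes were called higher as deposited and 1, Msmo1, with median-of-ratios, nuclear and quantile scaling (1 in each). Leaving out a library gave 0 as deposited; with median-of-ratios scaling, added after seeing the data, it gave 0 to 3 (1 without forskolin 1, 3 without forskolin 2). The replicate block gave 0 calls and changed no call; the replicate numbers are only numbers here. For forskolin against control, the 26 calls became 5 with each of these 3 scalings, 17 to 29 without 1 library, and with median-of-ratios scaling 6 and 3 without forskolin 1 and 2, and 4 and 4 without cAMP 1 and 2. For cAMP against control, the 27 higher calls became 14, 14 and 12 with median-of-ratios, nuclear and quantile scaling, 25 to 28 without 1 library, and with median-of-ratios scaling 14 without forskolin 1, forskolin 2 or cAMP 1 and 6 without cAMP 2. The 0 lower calls became 1 (Sc5d) with each of the 3 scalings and, with median-of-ratios scaling, 1 without forskolin 1, forskolin 2 or cAMP 2. The pseudocounts and filters moved these counts by less than 1.5 times. Among the 5 forskolin calls, quantile scaling held Hmgcs1 and not Mvd, whereas median-of-ratios and nuclear scaling held the same genes as each other. The cause of these shifts was not tested.

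Directions turned as follows, listed against the control for the genes called as deposited. Among the genes not called, Ggps1 with cAMP turned from 1.28 to -0.28 with median-of-ratios scaling. The turns of Sc5d, Dhcr7, Mylip and Ebp with that scaling are given above. For forskolin against control, the log2 changes with median-of-ratios, nuclear and quantile scaling were -0.22, -0.14 and -0.27 for Mvk, -0.10, -0.02 and -0.12 for Pmvk, -0.18, -0.10 and -0.21 for Fdps, -0.27, -0.20 and -0.42 for Ggps1, -0.30, -0.21 and -0.04 for Msmo1, -0.49, -0.41 and -0.52 for Insig2, -0.28, -0.20 and -0.36 for Stard4, and -0.60, -0.52 and -0.63 for Npc2. Npc1 had -0.04 with median-of-ratios and -0.08 with quantile scaling. For cAMP against control they were -0.13, -0.11 and -0.16 for Insig2, -0.46, -0.44 and -0.52 for Stard4, and -0.42, -0.39 and -0.45 for Npc1, and Lbr had -0.02 with quantile scaling. For cAMP against forskolin, differences near 0 turned: Ggps1 to 0.01 and Scap to -0.04 with quantile scaling. Without 1 library, Ggps1 ran from -0.36 to 0.27, Lbr ran from -0.34 to 0.10, Dhcr7 ran from -0.12 to 0.41, Srebf2 ran from -0.54 to 0.17, Scap ran from -0.32 to 0.45, Stard4 ran from -0.66 to 0.26 and Nr1h2 ran from -0.27 to 0.42.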
